A study of Mus musculus with 17 samples.

Results

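Whole kidneys of 24-month-old mice were compared with whole kidneys of 3-month-old mice by RNA sequencing. Every sample labelled as whole kidney at either age was taken, which gave 3 kidneys of each age, or 6 of the 17 samples of the series. All mice were wild-type C57BL/6Rj animals without treatment, described as males in the study, and the RNA came from a frozen part of the right kidney. The study's methods write the strain as C57BL/6JRj. The study kept only kidneys in which it had seen no pathology. The remaining samples are 3 kidneys of 12-month-old mice, which entered the same fit and are given side by side, and cultured tubular cells, which were not used here. Genes were taken where the gene sets of both ages held them, 53772 of the 55775 identifiers found in either set, and 17067 of these passed edgeR's filter on low counts.

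The kidney filters blood in its glomeruli and takes most of the filtrate back along the tubule. The proximal tubule recovers glucose, phosphate and amino acids and makes the active form of vitamin D, whereas the distal segments and the collecting duct adjust salt, acid and water. Between the tubules lie vessels, fibroblasts, macrophages and dendritic cells, and aging kidneys are known for gathering lymphocytes and matrix there.

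Depth ran from 37311247 to 49471409 counts at 3 months and from 62761670 to 66894790 at 24 months, so that the older libraries were deeper. Expression is given as CPM, the count of a gene normalized to the scaled library size. The summed level of 24 proximal tubule transport genes was between 10857 and 18517 CPM in the 6 kidneys, while 10 adrenal genes summed to at most 0.790 CPM and 9 skeletal muscle genes to at most 1.80 CPM. The kidneys of 3 months differed among themselves. In a principal component analysis of the 9 kidneys the first component held 41% of the variance and put 3-month replicates 1 and 3 (scores of -56.8 and -85.3) away from 3-month replicate 2 (3.53), which lay nearer to the 24-month-old kidneys (16.5 to 46.0). A list of 9 urothelium genes, which mark the lining of the renal pelvis, summed to 230, 38.2 and 184 CPM in 3-month replicates 1, 2 and 3 and to 51.8, 32.4 and 75.6 CPM at 24 months. Its part in the results below was not tested, and its values are repeated where a gene of that lining is described.

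The ages had been counted on different gene sets, with 54146 identifiers at 3 months and 55401 at 12 and 24 months. Age and gene set cannot be told apart in the comparison of 24 with 3 months, whereas the kidneys of 12 and 24 months share a set. A gene is called stable in its model here where its identifier had the same version in both sets, where it overlapped no gene of only 1 set, and where it was not an immunoglobulin gene. Of the tested genes 15172 were of this kind. Levels at 12 months are given for the main genes, since a change of the gene model would appear as a step between 3 and 12 months with no further step. For genes given without 12-month values, the text does not show whether a change lay before or after 12 months.

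At 24 months 322 genes were up-regulated, 1.89% of the genes tested, and 77 genes were down-regulated, 0.451% of the genes tested. A gene was called up- or down-regulated where edgeR's quasi-likelihood test gave an adjusted p below 0.05 and its log2 fold change was larger than 0.5 in size. Each 24-month-old kidney lay above each 3-month-old kidney for 11.9% of the tested genes and below for 10.1%, and the median log2 fold change of all tested genes was 0.00. Among genes stable in their model 239 were up-regulated and 54 down-regulated, 1.93% of them, against 83 and 23 among the other 1895 genes, 5.59% of those. Of the up-regulated genes 253 were protein-coding and 35 were immunoglobulin genes. In bulk tissue fewer cells of a type and less RNA per cell cannot be told apart. The p-values measure the spread between 3 mice of each age, estimated over all 9 kidneys, those of 12 months included. The number of calls depended on single kidneys, from 52 up-regulated and 22 down-regulated genes without 3-month replicate 1 to 460 and 334 without 3-month replicate 2. For the called genes below that are in a list or named by size, the number of fits out of 6 that kept its call when a kidney of 3 or 24 months was left out is therefore given, and where the highest adjusted p of those fits is printed, it came without 3-month replicate 1 unless another kidney is named.

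**Figure D1:**
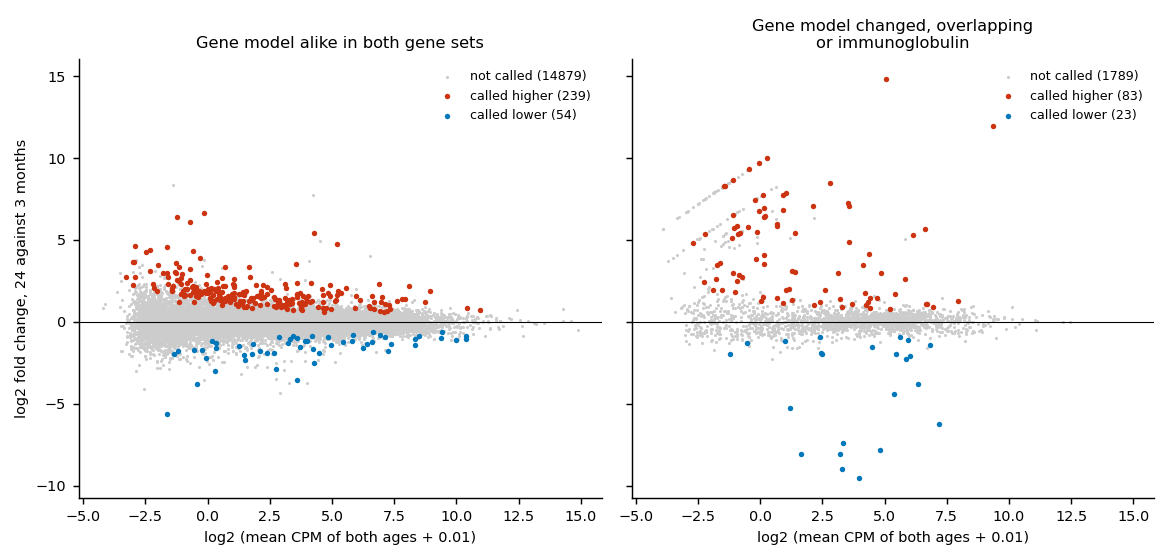
Each point is a gene, with the log2 of its mean CPM over the 6 kidneys (plus 0.01) on the x axis and its log2 fold change at 24 against 3 months on the y axis, for genes stable in their model (left) and for the other genes (right). Red points were called higher and blue points lower by edgeR and the right panel holds 83 red and 23 blue points, among them the largest changes in both directions.

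Among genes stable in their model the smallest adjusted p belonged to the vitamin D pathway of the proximal tubule. Cyp27b1 (chromosome 10, 127048250 to 127053006 in GRCm38), the enzyme that makes active vitamin D, was at 1.31, 1.95 and 2.25 CPM in the 3-month-old kidneys and at 23, 20.4 and 21.8 CPM in the 24-month-old kidneys. The groups lay far apart, and the kidneys of 12 months were in between at 4.02, 3.77 and 4.69 CPM. Its log2 fold change was 3.56 (SE 0.21, adjusted p = 8.23e-05 from edgeR), an 11.8-fold rise, and between 24 and 12 months it was 2.38 (adjusted p = 0.00459 in the fit of all 9 kidneys, 0.0751 in that fit with the replicate number as a block, and 5.79e-05 with the block in the kidneys of 12 and 24 months alone). The block in the kidneys of 12 and 24 months alone was added after seeing the data. A replicate number stands for different mice at each age. Cyp27b1 was called in 6 of the 6 fits with a kidney left out, with log2 fold changes from 3.37 to 3.73 and a highest adjusted p of 0.000981 without 24-month replicate 3. Cyp24a1 (chromosome 2, 170482708 to 170497145), the enzyme that breaks active vitamin D down and is itself a target of the vitamin D receptor, rose as well. It was at 1.65, 4.26 and 1.84 CPM at 3 months, at 37.3, 18.7 and 36.7 CPM at 12 months and at 28.0, 75.1 and 108 CPM at 24 months. Each older kidney stood above each 3-month-old kidney, with a wide spread among the 24-month-old ones. The log2 fold change was 4.76 (SE 0.61, adjusted p = 0.00734), and 5 of 6 fits kept the call, with a highest adjusted p of 0.0570.

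A few carriers of the proximal tubule rose as well. Slc5a2 (chromosome 7, 128265657 to 128272430), the sodium-glucose cotransporter of the early proximal tubule, was at 194, 273 and 154 CPM at 3 months, at 372, 245 and 380 CPM at 12 months and at 840, 639 and 807 CPM at 24 months. The 24-month-old kidneys exceeded all others, a log2 fold change of 1.88 over 3 months (SE 0.26, adjusted p = 0.00997, kept in 5 of 6 fits with a highest adjusted p of 0.0780). Slc34a3 (chromosome 2, 25228898 to 25234364), a sodium-phosphate cotransporter, was at 16.4, 24.9 and 13.3 CPM at 3 months and at 56.7, 52.1 and 60.1 CPM at 24 months. Its log2 fold change was 1.63 (SE 0.23, adjusted p = 0.0120, kept in 5 of 6 fits with a highest adjusted p of 0.0823) and 1.23 against 12 months (adjusted p = 0.0443). Slc5a12, a lactate carrier, and Slc7a7, a carrier of basic amino acids, also rose, by 1.56 (adjusted p = 0.0279) and by 1.11 (adjusted p = 0.0261) on the log2 scale, each kept in 1 of 6 fits. Slc22a19, an organic anion carrier, fell from 159, 177 and 210 CPM to 80.8, 112 and 93.9 CPM, a log2 fold change of -0.93 (adjusted p = 0.0400, kept in 1 of 6 fits with a highest adjusted p of 0.156 without 24-month replicate 1). Of the 24 tested genes of the proximal tubule transport list 4 rose and 1 fell (median 0.38 on the log2 scale), and without 3-month replicate 1 none of them was called. The main phosphate cotransporter Slc34a1 was at 4129, 5904 and 2503 CPM at 3 months and at 7530, 5238 and 7502 CPM at 24 months, and its groups overlapped (log2 fold change 0.69, adjusted p = 0.328).

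Of 20 genes for endocytosis, brush border and identity of the proximal tubule 3 rose and none fell, with a median of 0.26. That median was 0.67 with 3-month replicate 2 left out, and 0.076 with 3-month replicate 3 left out. Besides the enzymes of vitamin D this was Miox, which opens the ring of inositol and was at 1531, 1611 and 1328 CPM at 3 months and 2569, 2307 and 2593 CPM at 24 months (log2 fold change 0.74, adjusted p = 0.0449, kept in 1 of 6 fits with a highest adjusted p of 0.189). The endocytic receptors Lrp2 and Cubn had overlapping groups, the first at 0.32 (adjusted p = 0.565), the second at 0.59 (adjusted p = 0.402) on the log2 scale, and so did Kl, which encodes Klotho (0.35, adjusted p = 0.506). Other abundant genes that rose were Dnase1, a secreted nuclease, at 964, 1165 and 779 CPM against 1609, 1792 and 1841 CPM (0.85, adjusted p = 0.0402, kept in 1 of 6 fits), and Hao2, a peroxisomal oxidase, at 253, 258 and 262 CPM against 464, 719 and 580 CPM (1.19, adjusted p = 0.0121, kept in 5 of 6 fits). Both were already at their higher level at 12 months, with log2 fold changes between 24 and 12 months of -0.03 and 0.33 (adjusted p = 0.938 and 0.396). Cyp2d12, a cytochrome P450, rose in steps, from 110, 96.2 and 89.7 CPM through 262, 184 and 199 CPM to 511, 421 and 405 CPM, with no overlap between 3 and 24 months (2.17, SE 0.19, adjusted p = 0.000694, kept in 6 of 6 fits). Apoe, a lipid carrier of tubule cells and macrophages, rose from 109, 124 and 163 CPM to 401, 307 and 350 CPM (1.42, SE 0.18, adjusted p = 0.00734, kept in 6 of 6 fits).

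**Figure D2:**
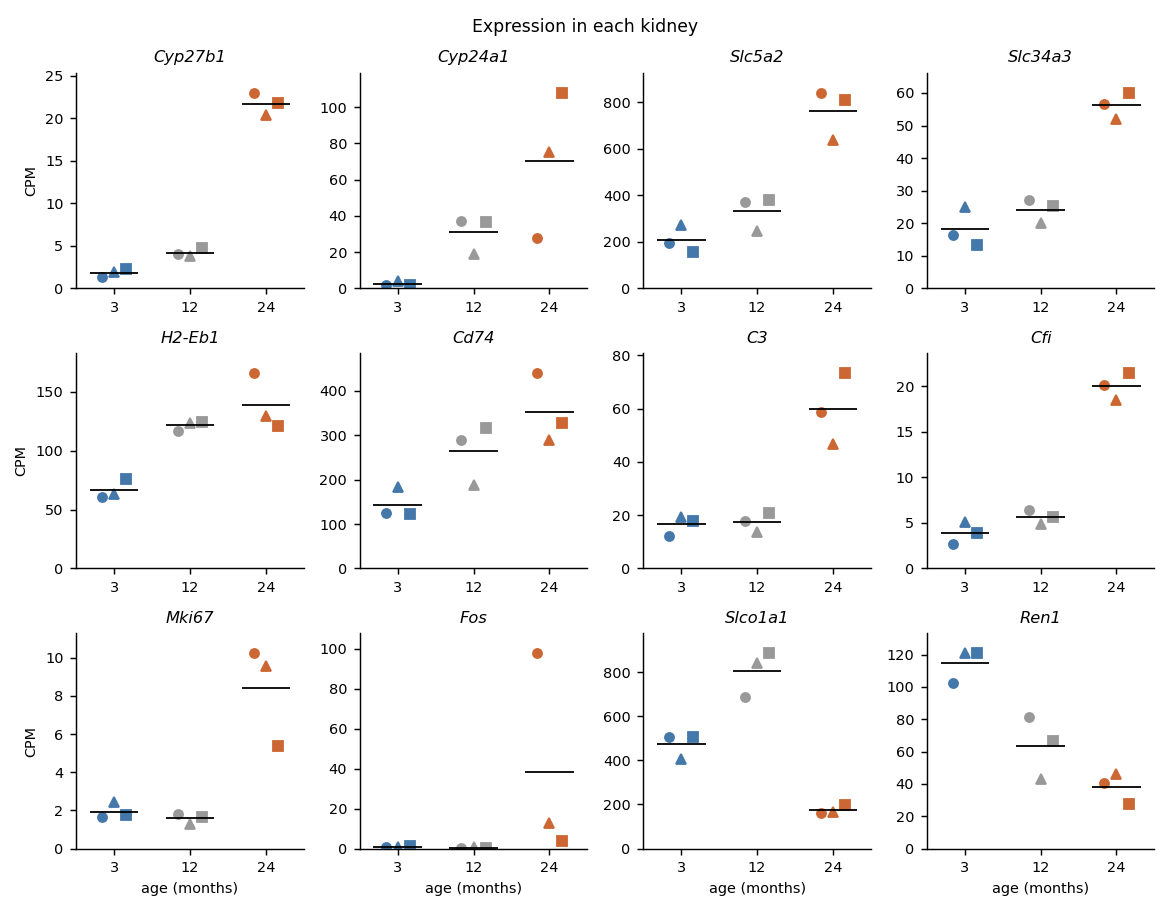
Expression in CPM (y axis, linear, from 0) of 12 genes in each kidney at 3, 12 and 24 months (x axis). Circles, triangles and squares are replicates 1, 2 and 3, which are different mice at each age, and the horizontal lines are means of 3 kidneys. Cyp27b1 is between 20.4 and 23 CPM at 24 months and at most 2.25 CPM at 3 months, while Fos is high in 24-month replicate 1 (97.8 CPM) above all others.

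Some genes of cell division were up-regulated too. Of 26 tested proliferation genes 7 rose and none fell (median 1.25 on the log2 scale). Mki67 (chromosome 7, 135689784 to 135716361), which marks dividing cells, was at 1.63, 2.44 and 1.75 CPM at 3 months, at 1.82, 1.28 and 1.66 CPM at 12 months and at 10.2, 9.57 and 5.36 CPM at 24 months. All 24-month-old kidneys stood above all younger ones, a log2 fold change of 2.11 (SE 0.29, adjusted p = 0.0103, kept in 5 of 6 fits with a highest adjusted p of 0.0754). Plk1, a mitotic kinase, was at 0.394, 0.492 and 0.337 CPM against 1.56, 3.24 and 1.80 CPM (2.42, SE 0.33, adjusted p = 0.00983, kept in 5 of 6 fits with a highest adjusted p of 0.0726). Top2a, the topoisomerase of dividing cells, went from 2.02, 2.07 and 1.84 CPM to 6.84, 9.12 and 4.44 CPM (1.78, adjusted p = 0.0121, kept in 5 of 6 fits). The other members that rose were Cdc20 (1.86), an activator of the anaphase-promoting complex, Cenpf (2.21), a kinetochore protein, Ccnb1 (2.18), the mitotic cyclin, and Tpx2 (1.75), a spindle protein, with adjusted p-values from 0.0121 to 0.0499. Cdc20 kept its call in 5 of 6 fits, Cenpf and Tpx2 in 1 and Ccnb1 in 0. Between 24 and 12 months, within 1 gene set, 11 proliferation genes passed an adjusted p of 0.05, and the median was 1.80. Over all 17067 tested genes that fit gave 153 higher and 74 lower at 24 months. With the kidneys of 12 and 24 months alone 9 proliferation genes passed, and 21 with the replicate number as a block. Over all 16637 genes tested there 141 were higher and 46 lower without the block, and 1293 and 902 with it. The replicate number, which stands for different mice at each age, was added there as a block after seeing the data. With that block over all 9 kidneys edgeR passed 0 proliferation genes, although 22 had an unadjusted p under 0.05. It called 0 of all 17067 tested genes in that fit. Without 3-month replicate 1 none of the 26 genes was called, with a median of 1.39. With any other kidney of the compared ages left out, 4 to 6 were called. Of 8 tested replication-dependent histone genes none rose and Hist1h4h fell, from 5.41, 3.54 and 7.24 CPM to 0.748, 1.91 and 1.55 CPM (-1.94, adjusted p = 0.0374, kept in 1 of 6 fits with a highest adjusted p of 0.142), with a list median of -0.06. At 12 months Hist1h4h was at 1.01, 1.45 and 1.04 CPM, and 24 against 12 months gave 0.27 (adjusted p = 0.746 from edgeR). That fall lay where the gene set changed. The libraries were selected for poly(A), so that only histone transcripts captured that way were counted.

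Because the proliferation genes that rose belong to 1 list, the 250 bases before their start are shown from RefSeq (GRCm38.p6) for 4 of them, and for Cyp27b1 as the gene with the smallest adjusted p among those stable in their model. They were searched on both strands for the CHR element TTTGAA and the CCAAT box CCAAT, 2 short motifs known from promoters of cell cycle genes, and overlapping matches were all counted. Capitals mark the matches, of both motifs for the cell cycle genes and of CCAAT for Cyp27b1.
Mki67 (chr7:135716380-135716629, minus strand): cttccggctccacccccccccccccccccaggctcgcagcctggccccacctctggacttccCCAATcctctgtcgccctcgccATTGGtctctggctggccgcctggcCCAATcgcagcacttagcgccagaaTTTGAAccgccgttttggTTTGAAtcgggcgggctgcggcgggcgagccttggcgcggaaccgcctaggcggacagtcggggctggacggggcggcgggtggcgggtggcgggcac
Top2a (chr11:99024190-99024439, minus strand): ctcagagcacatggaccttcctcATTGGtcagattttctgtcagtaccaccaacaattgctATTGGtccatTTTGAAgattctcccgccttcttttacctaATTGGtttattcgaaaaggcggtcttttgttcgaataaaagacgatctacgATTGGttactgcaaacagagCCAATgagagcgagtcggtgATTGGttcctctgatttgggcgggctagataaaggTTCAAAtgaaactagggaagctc
Cdc20 (chr4:118437344-118437593, minus strand): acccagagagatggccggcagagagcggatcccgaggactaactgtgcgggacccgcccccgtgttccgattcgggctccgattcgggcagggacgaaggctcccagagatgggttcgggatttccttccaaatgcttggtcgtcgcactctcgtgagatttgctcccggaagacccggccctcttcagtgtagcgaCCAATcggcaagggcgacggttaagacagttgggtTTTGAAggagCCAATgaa
Plk1 (chr7:122159185-122159434, plus strand): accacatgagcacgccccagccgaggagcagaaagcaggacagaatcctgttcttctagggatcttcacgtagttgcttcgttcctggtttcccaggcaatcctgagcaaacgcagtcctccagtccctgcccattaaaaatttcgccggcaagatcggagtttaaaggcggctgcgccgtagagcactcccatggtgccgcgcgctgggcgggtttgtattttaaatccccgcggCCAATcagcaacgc
Cyp27b1 (chr10:127047996-127048245, plus strand): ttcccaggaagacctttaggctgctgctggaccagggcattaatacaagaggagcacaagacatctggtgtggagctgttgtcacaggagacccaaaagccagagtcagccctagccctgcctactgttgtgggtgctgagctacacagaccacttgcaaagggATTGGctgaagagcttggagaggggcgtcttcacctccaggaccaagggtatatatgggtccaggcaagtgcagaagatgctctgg
Of the 7 proliferation genes that rose 6 had such a window, all 6 of which held CCAAT and 3 of which held TTTGAA. Over all 22 tested proliferation genes with a window 20 held CCAAT and 8 held TTTGAA. Of all 32851 windows 33.8% held CCAAT and 16% held TTTGAA. A match describes these letters in this window and is not evidence of binding.

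The study was directed at MHC-II, the molecules that present peptides to helper T cells. Of 11 tested MHC-II genes 6 rose and none fell (median 0.99 on the log2 scale), and each of them was higher in every 24-month-old kidney than in every 3-month-old kidney. H2-Eb1 (chromosome 17, 34305867 to 34316674), a beta chain, was at 60.4, 63.3 and 76.4 CPM at 3 months, at 117, 124 and 124 CPM at 12 months and at 166, 129 and 121 CPM at 24 months. The step was between 3 and 12 months, and the log2 fold change was 1.06 for 24 against 3 months (SE 0.16, adjusted p = 0.0148, kept in 4 of 6 fits with a highest adjusted p of 0.0976) and 0.19 for 24 against 12 months (adjusted p = 0.590). H2-Ab1, the other beta chain, was at 74.9, 83.5 and 96.2 CPM against 195, 150 and 141 CPM (0.93, adjusted p = 0.0244, kept in 2 of 6 fits), and H2-Aa, an alpha chain, at 54.6, 61.1 and 77 CPM against 162, 131 and 121 CPM (1.1, adjusted p = 0.0178, kept in 4 of 6 fits). Cd74, the invariant chain, was at 125, 182 and 122 CPM at 3 months, at 290, 189 and 317 CPM at 12 months and at 440, 289 and 326 CPM at 24 months (1.30, SE 0.26, adjusted p = 0.0400, kept in 1 of 6 fits with a highest adjusted p of 0.198). H2-DMa and H2-Eb2 also rose, with 0.89 (adjusted p = 0.0291) and 2.45 (adjusted p = 0.0356), each kept in 1 of 6 fits. The identifier version of 10 of the 11 genes differed between the gene sets. The exception is Ciita, the master regulator of MHC-II transcription, at 3.20, 4.14 and 3.89 CPM against 6.73, 6.12 and 5.22 CPM, which did not pass (0.69, adjusted p = 0.120). Without 3-month replicate 1 or 24-month replicate 1 none of the 11 genes was called, with medians of 0.94 and 0.91.

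Of 16 tested MHC class I genes none was called, with a median of 0.24, from H2-T22 (-0.41, adjusted p = 0.196) to the class I regulator Nlrc5 (0.64, adjusted p = 0.430). Of 28 interferon response genes 1 rose, Oas3, which senses double-stranded RNA, at 0.420, 0.471 and 0.247 CPM against 1.25, 1.43 and 1.17 CPM (1.75, adjusted p = 0.0217, kept in 1 of 6 fits with a highest adjusted p of 0.101), and the list median was 0.18. Without 24-month replicate 2 that median was -0.09.

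Complement genes, whose products tag and attack targets in plasma and tissue, rose in 6 of 19 members with none falling and a median of 0.93. All of them are stable in their model. C3 (chromosome 17, 57203970 to 57228136), the central component, was at 12.3, 19.3 and 17.9 CPM at 3 months, at 17.8, 13.8 and 20.6 CPM at 12 months and at 58.8, 46.9 and 73.4 CPM at 24 months. The 12-month-old kidneys lay within the range of 3 months or just above it, with log2 fold changes of 1.86 over 3 months (SE 0.24, adjusted p = 0.00821, kept in 6 of 6 fits) and 1.78 over 12 months (adjusted p = 0.0187). Cfi (chromosome 3, 129835884 to 129875332), the protease that inactivates C3b, was at 2.63, 5.08 and 3.87 CPM against 20.1, 18.5 and 21.4 CPM (2.37, SE 0.24, adjusted p = 0.00219, kept in 6 of 6 fits). C4b, of the classical pathway, was at 4.17, 8.15 and 5.29 CPM against 31.6, 23.2 and 34.6 CPM (2.34, adjusted p = 0.0137, kept in 2 of 6 fits with a highest adjusted p of 0.0823). C1qc, C6 and C7, of the first component and of the membrane attack complex, rose by 1.05, 2.34 and 2.06, with adjusted p-values from 0.0170 to 0.0395, and were kept in 1, 2 and 4 of 6 fits. The number of complement genes called was 2 without 3-month replicate 1 and 3 without 24-month replicate 1 or 3.

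Some lymphocyte genes rose from very low levels, and most of those tested did not pass. Of 13 tested B and plasma cell genes 5 rose and none fell (median 2.0), of 19 T and NK cell genes 3 rose (1.1), of 10 dendritic cell genes 2 (0.69), of 19 macrophage genes 1 (0.79), and of 15 genes shared by all leukocytes 4 (0.74). The fold change was below 0 for 2 of the B and plasma cell genes and for 3 of the T and NK cell genes. The dendritic cell median was 0.44 with 3-month replicate 2 left out. The macrophage median was 0.52 with 24-month replicate 1 left out and 1.21 with 3-month replicate 3 left out. Cd79a, a chain of the B cell receptor, was at 0.158, 0.246 and 0.292 CPM at 3 months, 0.989, 1.04 and 1.0 CPM at 12 months and 1.1, 1.96 and 2.07 CPM at 24 months (2.86, SE 0.34, adjusted p = 0.00418, kept in 6 of 6 fits). Pou2af1, a coactivator in B cells, was at 0.0525, 0.0410 and 0.0900 CPM against 0.779, 2.16 and 0.814 CPM (adjusted p = 0.0166, kept in 4 of 6 fits). The older kidneys carried low but separate levels of both genes. Cd3g, a chain of the T cell receptor complex, went from 0.315, 0.471 and 0.382 CPM to 1.30, 1.16 and 1.34 CPM (1.68, adjusted p = 0.0148), and Cd4, the coreceptor of helper T cells, from 0.315, 0.307 and 0.450 CPM to 1.34, 0.942 and 0.983 CPM (1.60, adjusted p = 0.0242), each kept in 2 of 6 fits. The leukocyte genes Cd37, a tetraspanin, and Rac2, a small GTPase, rose by 1.85 (adjusted p = 0.0117, kept in 6 of 6 fits) and 1.59 (adjusted p = 0.0188, kept in 2 of 6 fits). Without 3-month replicate 1 the calls in these lists were 1 for B and plasma cells, 1 for all leukocytes and 0 for T and NK cells, dendritic cells and macrophages. The T and NK cell and macrophage calls were also 0 without 24-month replicate 1 and without 24-month replicate 3.

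Siglec1, a sialic acid receptor of macrophages, was at 0.158, 0.205 and 0.270 CPM against 0.901, 0.745 and 0.875 CPM (1.98, adjusted p = 0.0272, kept in 1 of 6 fits with a highest adjusted p of 0.145). Adgre1, which encodes the F4/80 antigen and whose identifier version differed, was at 3.36, 3.01 and 4.79 CPM against 9.93, 6.23 and 5.36 CPM and was not called (0.95, adjusted p = 0.119). Cd81, a tetraspanin, stayed between 315 and 376 CPM in the 6 kidneys (0.09, adjusted p = 0.680), and the pan-leukocyte phosphatase Ptprc had overlapping groups (0.74, adjusted p = 0.286). Irf8, a transcription factor of dendritic cells, rose from 9.32, 9.38 and 10.4 CPM to 23, 20.7 and 18.2 CPM (1.08, SE 0.14, adjusted p = 0.00685, kept in 5 of 6 fits), and Xcr1, a chemokine receptor of cross-presenting dendritic cells whose identifier version differed, rose by 1.51 (adjusted p = 0.0148, kept in 4 of 6 fits). None of 6 tested neutrophil and mast cell genes was called (median 1.23, from 0.88 for S100a9 to 2.01 for Cxcr2, adjusted p = 0.619 and 0.221). Their median was 0.66 with 24-month replicate 2 left out, and 3.08 with 3-month replicate 3 left out. S100a9 itself ran from 0.21 to 3.08 over the fits with a kidney left out.

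Immunoglobulin constant region genes had the largest median of all lists, 5.43, with 9 of 11 called and none falling. Their summed level was at most 16.3 CPM at 3 months and 141, 1030 and 330 CPM in 24-month replicates 1, 2 and 3, against 61.0 to 389 CPM at 12 months. Ighm, of IgM, was at 2.89, 3.44 and 3.80 CPM at 3 months, 16.8, 15.7 and 9.49 CPM at 12 months and 41.2, 290 and 76.9 CPM at 24 months (5.33, SE 0.72, adjusted p = 0.00955, kept in 5 of 6 fits with a highest adjusted p of 0.0754), and Ighd, of IgD, rose by 2.51 (adjusted p = 0.0185, kept in 2 of 6 fits). The 24-month-old mice differed widely among themselves, and 24-month replicate 2 was the highest. Near-identical gene segments can share reads in this locus, and the list had 0 calls without 3-month replicate 1 and 1 call without 24-month replicate 2 or 3.

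A few of the signals that draw leukocytes into tissue rose. Of 12 tested adhesion and lymphoid aggregate genes 2 rose (median 0.99). With a mean of at least 1 CPM required, 7 of them were left, with a median of 0.44 and 2 called higher. Vcam1 (chromosome 3, 116109949 to 116129688), an adhesion molecule for lymphocytes, was at 5.67, 6.47 and 9.18 CPM against 24.3, 23.2 and 16.1 CPM (1.57, SE 0.22, adjusted p = 0.0113, kept in 5 of 6 fits with a highest adjusted p of 0.0683), and Icam1, the ligand of leukocyte integrins, at 18.3, 18.2 and 21.4 CPM against 38.2, 36.4 and 27.9 CPM (0.82, adjusted p = 0.0291, kept in 2 of 6 fits). Of 21 tested chemokine genes 2 rose (median 0.65). They were Ccl5, which attracts T cells, at 0.866, 1.04 and 0.787 CPM against 3.25, 2.28 and 2.44 CPM (1.56, adjusted p = 0.0212, kept in 2 of 6 fits), and Cxcl13, which attracts B cells, at 0.0525, 0.0410 and 0.247 CPM against 1.02, 1.53 and 0.722 CPM (3.24, adjusted p = 0.0288, kept in 2 of 6 fits). At 12 months Cxcl13 was at 0.116 to 0.181 CPM.

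**Figure D3:**
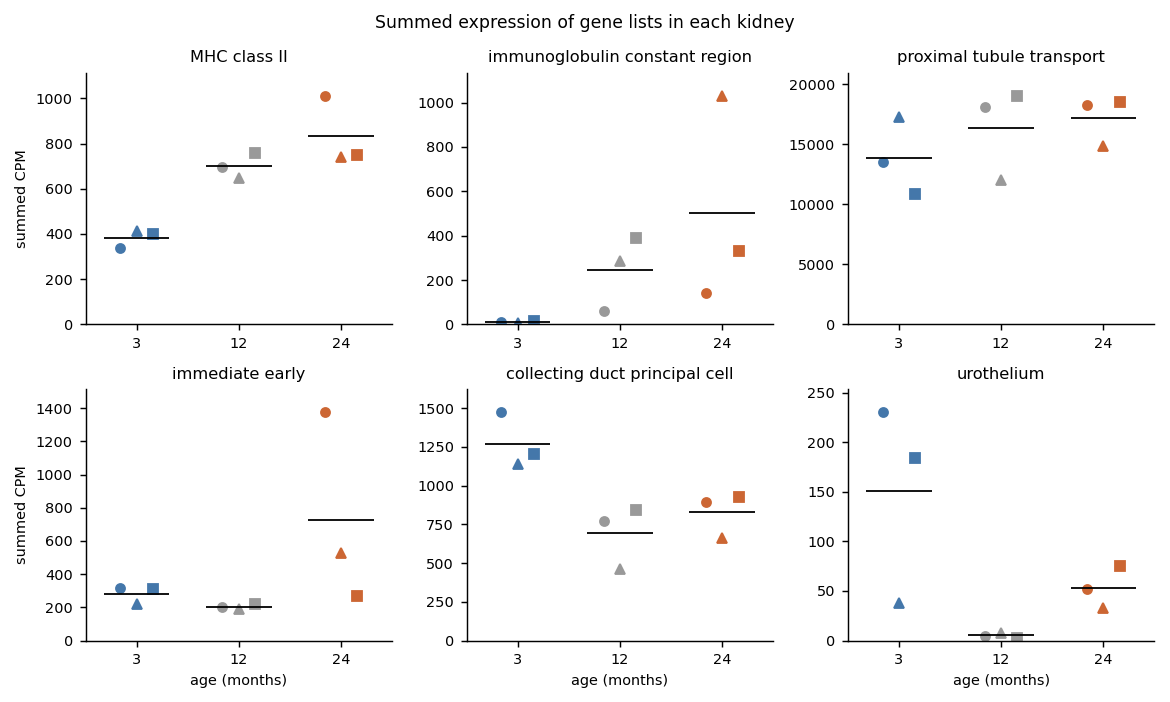
Summed CPM (y axis, linear, from 0) of the genes of 6 lists in each kidney at 3, 12 and 24 months (x axis), with circles, triangles and squares for replicates 1, 2 and 3 and lines for means of 3 kidneys. The immediate early sum is 1376 CPM in 24-month replicate 1 against at most 530 CPM elsewhere, and the urothelium sum is high in 3-month replicates 1 and 3.

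Senescence genes were examined since the study relates aging of the tubule to senescence, a lasting arrest of the cell cycle. Of 16 tested senescence and p53 genes 3 rose and none fell (median 0.49). Cdkn1a (chromosome 17, 29090976 to 29100727), which encodes the cell cycle inhibitor p21, was at 12.9, 11.5 and 12.1 CPM at 3 months, at 4.20, 3.27 and 5.17 CPM at 12 months and at 28.9, 33.0 and 22.1 CPM at 24 months. The lowest levels were those of the 12-month-old kidneys, with log2 fold changes of 1.20 for 24 against 3 months (SE 0.20, adjusted p = 0.0212, kept in 2 of 6 fits with a highest adjusted p of 0.100) and 2.73 for 24 against 12 months (adjusted p = 0.00391). Cdkn1a overlaps a gene of the older set alone, which had at most 3 counts in a 24-month-old kidney. The identifier version of Cdkn1a also differed between the gene sets, so that it is not stable in its model. Eda2r, a death receptor and p53 target, was at 0.840, 0.410 and 1.03 CPM against 2.96, 4.67 and 2.38 CPM (2.13, adjusted p = 0.0242, kept in 3 of 6 fits with a highest adjusted p of 0.113). Gdf15, a stress cytokine, was at 9.48, 6.00 and 12.7 CPM at 3 months, 3.85, 3.67 and 3.55 CPM at 12 months and 23.3, 28.4 and 17.1 CPM at 24 months (1.29, adjusted p = 0.0499, kept in 2 of 6 fits). Cdkn2a, which encodes p16, did not pass the filter, with 0, 0 and 2 counts at 3 months and 15, 3 and 3 counts at 24 months. Without 3-month replicate 1 or without 24-month replicate 1 or 2 none of the 16 genes was called. Of 23 tested genes of the senescence associated secretory phenotype none rose (median 0.39), and Mif, a cytokine that binds Cd74, was at 208, 219 and 179 CPM against 183, 168 and 203 CPM (-0.13, adjusted p = 0.670). Igfbp2, an IGF-binding protein, fell from 42.5, 6.70 and 18.2 CPM to 1.92, 1.43 and 2.27 CPM (-3.58, SE 0.60, adjusted p = 0.0202, kept in 2 of 6 fits), and it was lower still at 12 months, from 0.251 to 0.468 CPM. The urothelium sum was likewise low in 3-month replicate 2 (230, 38.2 and 184 CPM) and lowest at 12 months (2.64 to 8.09 CPM), and its part in the fall of Igfbp2 was not tested.

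Of 17 markers of tubular injury 1 rose and none fell, with a median of -0.34. Leaving out 3-month replicate 2 gave a median of -0.57 with 2 called lower and 0 higher, and leaving out 3-month replicate 3 gave -0.049 with 0 called. That gene was Sox9, a transcription factor of regenerating tubules, at 0.866, 0.635 and 0.607 CPM against 1.5, 1.85 and 1.70 CPM (1.26, adjusted p = 0.0472), which was called in 0 of the 6 fits with a kidney left out and had a highest adjusted p of 0.158 without 3-month replicate 3. Havcr1, which encodes the injury marker Kim-1, was at 11.8, 3.30 and 24.2 CPM against 13.3, 32.9 and 19.3 CPM (0.74, adjusted p = 0.525). Its log2 fold change ran from 0.28 to 1.54 with a kidney left out. The keratins Krt8 (-0.08), Krt7 (-0.58), Krt18 (-0.97) and Krt19 (-1.18) were not called, with adjusted p-values from 0.207 to 0.841. With a kidney left out Krt18 ran from -1.31 to -0.56 and Krt19 from -1.57 to -0.70. In edgeR Krt19 passed an adjusted p of 0.05 in 1 of these 6 fits. Krt19 was at 54.5, 12.6 and 37.8 CPM at 3 months and 17.8, 9.79 and 18.7 CPM at 24 months, with the same low 3-month kidney as the urothelium sum of 230, 38.2 and 184 CPM, and keratins are also made in that lining. Of the urothelium list itself none of 9 genes was called (median -1.45, from -0.28 for Krt15 to -2.38 for Upk3b, adjusted p = 0.757 and 0.126). Without 3-month replicate 2, 4 of them were called lower.

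Immediate early genes, which are switched on within minutes of a stimulus, rose in 3 of 20 members with none falling and a median of 1.39. Fos was at 0.761, 0.553 and 1.39 CPM at 3 months and at 97.8, 12.7 and 4.01 CPM at 24 months (5.4, SE 1.14, adjusted p = 0.0471, kept in 1 of 6 fits with a highest adjusted p of 0.217). Its log2 fold change ran from 3.22 to 5.92 over these fits. Zfp36, which speeds mRNA decay, was at 19.7, 21.3 and 14.6 CPM against 134, 55.8 and 39.7 CPM (2.04, adjusted p = 0.0471), and Dusp1, a phosphatase of MAP kinases that overlaps genes of the older set alone and has another identifier version there, at 18.3, 17.8 and 24.7 CPM against 96.5, 69.1 and 30.8 CPM (1.69, adjusted p = 0.0471), each kept in 1 of 6 fits. In all 3 genes 24-month replicate 1 was the highest, and the list median without that kidney was 0.56 with no gene called. With 24-month replicate 3 left out 6 genes rose, and with any other kidney of the compared ages left out none did. Without 24-month replicate 2, 1 gene of the list fell. Of 16 heat shock genes 1 rose, Hspb8, a small chaperone, from 8.27, 5.18 and 11.5 CPM to 22.1, 27.3 and 19.3 CPM (1.46, adjusted p = 0.0298, kept in 2 of 6 fits), with a list median of -0.02. Of 19 circadian clock genes none was called (median 0.20), with Cry2 at 1.37 (adjusted p = 0.0547) and Nfil3 at -0.88 (adjusted p = 0.392). The hours of tissue collection are not given in the sources used here.

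**Figure D4:**
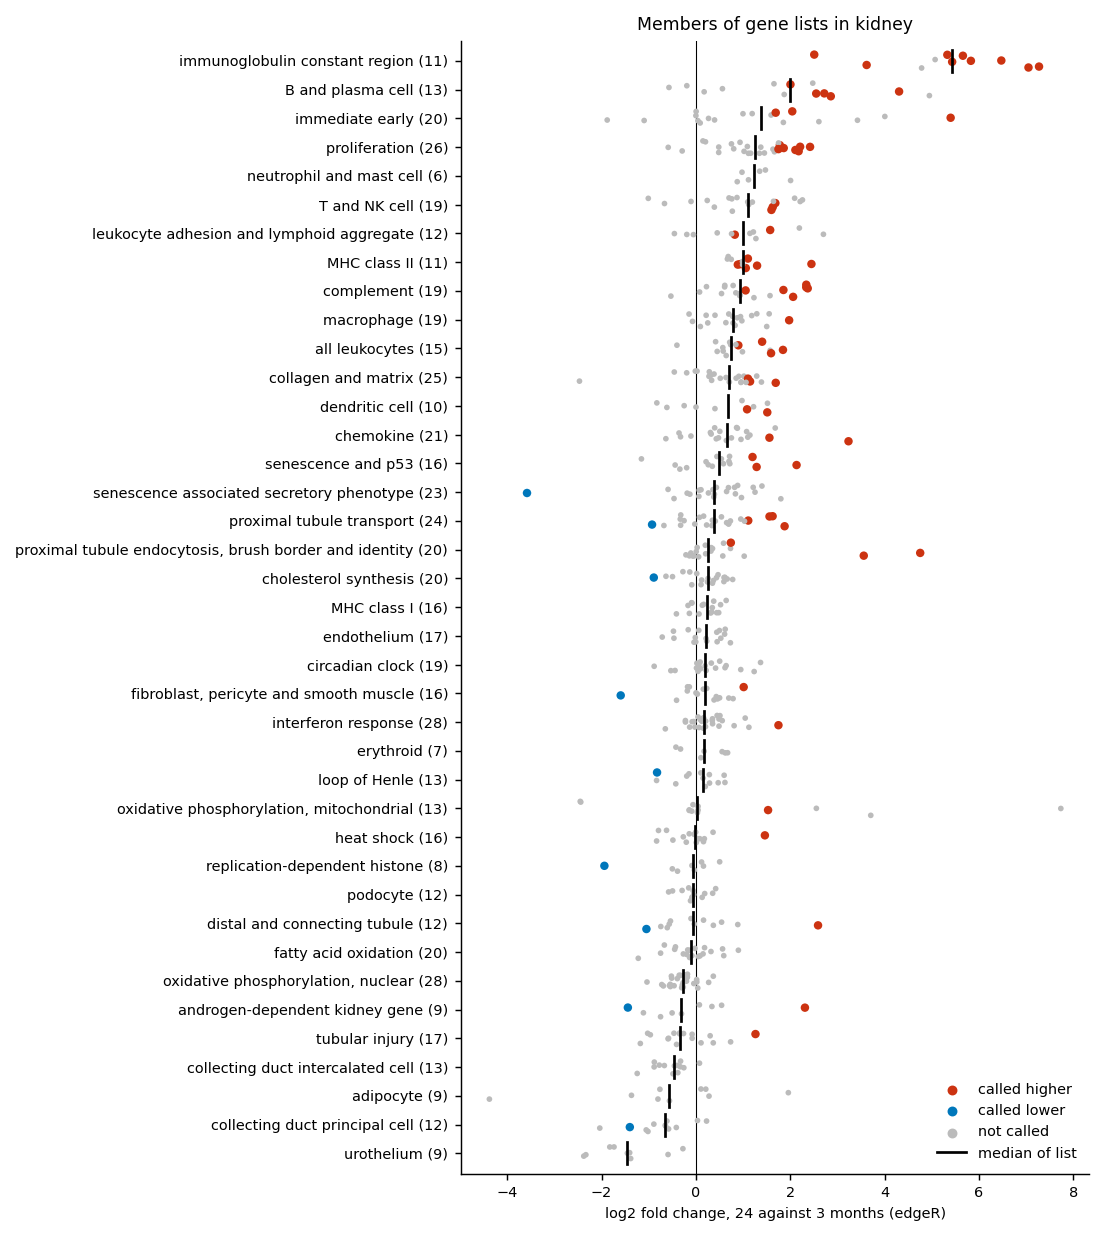
Each point is a tested gene of a list, placed by its log2 fold change at 24 against 3 months on the x axis, with lists of at least 5 tested genes (their number in brackets) ordered by their median, the black bar. Red members were called higher and blue members lower by edgeR, with 9 of 11 immunoglobulin constant region genes called at the top and none of 9 urothelium genes at the bottom.

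Matrix genes rose in 3 of 25 members with none falling and a median of 0.71. All 3 encode chains of type VI collagen, a microfibril around cells. Col6a2 was at 5.33, 7.78 and 3.78 CPM against 23.1, 16.1 and 15.5 CPM (1.69, SE 0.30, adjusted p = 0.0239, kept in 1 of 6 fits with a highest adjusted p of 0.137), Col6a1 at 7.69, 9.93 and 6.19 CPM against 14.3, 18.9 and 19.6 CPM (1.15, adjusted p = 0.0225, kept in 2 of 6 fits), and Col6a3 had 1.1 (adjusted p = 0.0313, kept in 1 of 6 fits). The fibrillar chains Col1a1 and Col3a1 were not called, with 1.03 (adjusted p = 0.105) and 0.33 (adjusted p = 0.406). Without 3-month replicate 2, 10 matrix genes rose and 1 fell, and without 24-month replicate 1, 1 rose. None was called without 3-month replicate 1 or 3, or without 24-month replicate 2 or 3. Of 16 fibroblast, pericyte and smooth muscle genes 1 rose and 1 fell (median 0.19). Fbln1, a matrix protein, rose from 4.59, 6.43 and 5.49 CPM to 14.3, 9.26 and 9.78 CPM (1.01, adjusted p = 0.0447, kept in 1 of 6 fits with a highest adjusted p of 0.200). Ren1 (chromosome 1, 133350510 to 133360325), which encodes renin, the enzyme that starts the angiotensin cascade, fell from 103, 121 and 121 CPM at 3 months through 81.2, 43.3 and 66.6 CPM at 12 months to 40.3, 46.1 and 27.7 CPM at 24 months. The groups of 3 and 24 months did not overlap (-1.59, SE 0.26, adjusted p = 0.0185, kept in 2 of 6 fits with a highest adjusted p of 0.0802). Among the genes with the largest rises Grem1, a BMP antagonist, went from 0.131, 0.246 and 0.472 CPM to 2.64, 3.51 and 2.64 CPM (3.35, SE 0.46, adjusted p = 0.00955) and Ltbp2, a matrix protein that binds to microfibrils, from 0.263, 0.430 and 0.472 CPM to 2.76, 1.88 and 3.03 CPM (2.70, SE 0.31, adjusted p = 0.00398). Both were called in 6 of 6 fits, and both were at most 0.781 CPM at 12 months.

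Other genes with the largest rises were Stra6, a retinol receptor, at 0.263, 1.09 and 0.315 CPM against 8.35, 3.51 and 5.68 CPM (3.37, adjusted p = 0.0242, kept in 2 of 6 fits with a highest adjusted p of 0.123), and Slc38a4, an amino acid carrier, at 0.971, 1.04 and 0.540 CPM against 5.74, 5.09 and 6.02 CPM (2.72, SE 0.27, adjusted p = 0.00201, kept in 6 of 6 fits). The unnamed transcripts Gm47842 and Gm44588 rose by 2.61 (adjusted p = 0.0485, kept in 1 of 6 fits) and 2.31 (adjusted p = 0.00294, kept in 6 of 6 fits).

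Some kidney genes of males depend on androgen. Slco1a1 (chromosome 6, 141907282 to 141946962), an organic anion carrier under androgen control, was at 506, 406 and 508 CPM at 3 months, at 685, 842 and 886 CPM at 12 months and at 159, 165 and 198 CPM at 24 months. It rose to 12 months and then dropped below the level of 3 months, with log2 fold changes of -1.44 against 3 months (SE 0.17, adjusted p = 0.00398, kept in 6 of 6 fits) and -2.21 against 12 months (adjusted p = 0.00391). Of 9 androgen-dependent kidney genes 1 fell and 1 rose, with a median of -0.31. The one that rose was Cyp4a12a, an arachidonic acid hydroxylase, from 53.2, 27.4 and 39.1 CPM to 233, 134 and 227 CPM (2.31, adjusted p = 0.0288, kept in 2 of 6 fits), with 228, 85.4 and 247 CPM at 12 months. Kap, the androgen-regulated protein of the proximal tubule, was at 36344, 31170 and 39215 CPM against 21792, 27048 and 26400 CPM without overlap and was not called (-0.50, adjusted p = 0.117). Odc1, the first enzyme of polyamine synthesis, was at 2319, 1394 and 2474 CPM against 1153, 1377 and 1150 CPM (-0.75, adjusted p = 0.114).

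Several other genes fell from high levels of expression. Ugt2b38, a glucuronosyltransferase, went from 1430, 1052 and 1646 CPM to 539, 758 and 576 CPM (-1.14, SE 0.20, adjusted p = 0.0231, kept in 2 of 6 fits), and its relative Ugt2b37 from 215, 192 and 300 CPM to 48.7, 82.4 and 76.3 CPM (-1.77, SE 0.25, adjusted p = 0.0116, kept in 6 of 6 fits), although reads may be split between such close relatives. Lpl, lipoprotein lipase, went from 1479, 2002 and 1773 CPM to 954, 914 and 963 CPM (-0.89, adjusted p = 0.0269, kept in 1 of 6 fits with a highest adjusted p of 0.111 without 24-month replicate 1), and was at that level at 12 months. Cd36, a fatty acid carrier, went from 792, 886 and 843 CPM to 526, 513 and 604 CPM (-0.62, adjusted p = 0.0482), and was called in 0 of 6 fits with a kidney left out. Crot, which moves medium-chain fatty acids out of peroxisomes, went from 721, 787 and 1130 CPM to 442, 476 and 424 CPM (-0.98, adjusted p = 0.0485, kept in 1 of 6 fits). Cyp51, of cholesterol synthesis, went from 405, 513 and 485 CPM to 256, 262 and 237 CPM (-0.89, SE 0.14, adjusted p = 0.0148, kept in 3 of 6 fits with a highest adjusted p of 0.0662 without 24-month replicate 1), and was the only one of 20 genes of that pathway called (median 0.25). None of 20 fatty acid oxidation genes was called, with a median of -0.11, from Pdk4 (-1.22, adjusted p = 0.252) to Ppara (0.90, adjusted p = 0.268). None of 28 nuclear genes of oxidative phosphorylation was called either, with a median of -0.28, from Ndufb8 (-1.04, adjusted p = 0.268) to Sdha (0.37, adjusted p = 0.493).

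Of 12 collecting duct principal cell genes 1 fell and none rose (median -0.65), and the fold change was below 0 for 10 of them. Avpr2, the vasopressin receptor of the collecting duct, went from 52.0, 27.7 and 56.2 CPM to 17.3, 14.9 and 19.2 CPM (-1.40, SE 0.26, adjusted p = 0.0291, kept in 1 of 6 fits with a highest adjusted p of 0.142), and the water channel Aqp2 was at 615, 238 and 567 CPM against 293, 162 and 248 CPM (-1.02, adjusted p = 0.174). Against 12 months Avpr2 had 0.19 (adjusted p = 0.735 from edgeR), so that its fall lay where the gene set changed. The list summed to 1473, 1136 and 1204 CPM at 3 months and to 897, 660 and 925 CPM at 24 months without overlap. Without 3-month replicate 2, 4 of the list fell. None of 13 intercalated cell genes was called (median -0.46, below 0 for 12 of them), with the ammonia channel Rhbg at -1.24 (adjusted p = 0.0612) and the proton pump subunit Atp6v0a4 at 0.08 (adjusted p = 0.868). Of 13 loop of Henle genes 1 fell (median 0.15), Bsnd, the chloride channel subunit barttin, from 84.0, 63.5 and 74.4 CPM to 37.1, 43.6 and 44.7 CPM (-0.82, adjusted p = 0.0400, kept in 1 of 6 fits with a highest adjusted p of 0.192). Against 12 months Bsnd had 0.06 (adjusted p = 0.871 from edgeR), so that its fall lay there too. Of 12 distal and connecting tubule genes 1 fell and 1 rose (median -0.07). Klk1, tissue kallikrein, fell from 1986, 1618 and 1770 CPM to 759, 860 and 978 CPM (-1.05, SE 0.21, adjusted p = 0.0402, kept in 1 of 6 fits with a highest adjusted p of 0.187). Slc8a1, the sodium-calcium exchanger, rose from 14.7, 25.8 and 8.21 CPM to 119, 63.8 and 110 CPM (2.59, adjusted p = 0.0242, kept in 2 of 6 fits), overlaps a gene of the older set alone, differed in its identifier version, and was at 60.3, 38.1 and 83.8 CPM at 12 months.

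Glomerular and vascular genes were not called. Of 12 podocyte genes none passed (median -0.07, from Tcf21 at -0.58 to Magi2 at 0.42, adjusted p = 0.353 and 0.351), and of 17 endothelium genes none did (median 0.22, from the tight junction gene Cldn5 at -0.71 to the VEGF receptor Kdr at 0.73, adjusted p = 0.112 and 0.327). Leaving out 3-month replicate 2 gave a podocyte median of 0.49, and leaving out 3-month replicate 3 gave -0.30. The endothelium median was -0.040 with 24-month replicate 1 left out and 0.51 with 3-month replicate 2 left out. Lists for cells that dissection or blood can add were not called either. These were 9 adipocyte genes (median -0.56, from Ucp1 at -4.38 to Lep at 1.96, adjusted p = 0.221 and 0.544), 7 erythroid genes (0.17, with Hbb-bs lowest at -0.42, adjusted p = 0.643), and the only tested adrenal and skeletal muscle genes, Star (0.26, adjusted p = 0.750) and Mylpf (-0.12, adjusted p = 0.758). The adipocyte median was -3.93 with 24-month replicate 3 left out and 0.89 with 3-month replicate 3 left out. Ucp1 was at 13.0, 0.184 and 30.3 CPM at 3 months and at 0.0305, 0.0304 and 2.03 CPM at 24 months.

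Igfbp2 had the largest fall among called genes stable in their model whose level averaged 1 CPM or more and whose ages did not overlap, and the next ones follow here. Wnt11, a secreted signal of the ureteric bud in development, was at 2.15, 2.42 and 1.98 CPM at 3 months, 0.382, 0.839 and 0.405 CPM at 12 months and 0.290, 0.167 and 0.353 CPM at 24 months (-3.00, SE 0.39, adjusted p = 0.00770, kept in 6 of 6 fits). Akr1c18, a progesterone-metabolizing reductase, fell from 22.7, 25.4 and 49.6 CPM to 3.74, 8.08 and 5.22 CPM (-2.52, adjusted p = 0.0226, kept in 2 of 6 fits). Fam25c and Tldc2 fell by 2.89 and 2.33 on the log2 scale (adjusted p = 0.0117 and 0.0120, kept in 4 and 3 of 6 fits), Slc9a4, a sodium-proton exchanger, by 2.02 (adjusted p = 0.0402, kept in 1 of 6 fits), and the transcripts Gm9973 and AC158982.1 by 1.89 and 1.75 (adjusted p = 0.0221 and 0.0371, each kept in 1 of 6 fits). Wdr89 fell from 8.24, 6.72 and 9.92 CPM to 2.12, 2.69 and 1.89 CPM (-1.89, SE 0.25, adjusted p = 0.00770, kept in 6 of 6 fits). Snx31, a sorting nexin, went on falling, from 40.0, 29.8 and 34.8 CPM through 18.5, 23.6 and 18.7 CPM to 8.17, 8.5 and 10.9 CPM (-1.92, SE 0.18, adjusted p = 0.00161, kept in 6 of 6 fits, and -1.14 against 12 months, adjusted p = 0.0249).

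The largest called change in each direction was that of a gene that is not stable in its model, and 3 examples in each direction that overlap a gene of only 1 set are given. Hgs, an endosomal sorting protein, had 0 counts in each 3-month-old kidney and 71.4, 51.4 and 75.8 CPM at 24 months, with 57.0, 26.6 and 58.3 CPM at 12 months, and it overlaps another identifier of that symbol in the 3-month set alone, which had 0 counts too. CT010467.1, annotated as ribosomal RNA, was at most 0.405 CPM at 3 months and 1380, 1032 and 1499 CPM at 24 months, and it overlaps Gm42418 of the 3-month set alone, which had 734, 821 and 739 CPM there. Trf, which encodes transferrin, was at 1.76, 1.39 and 3.35 CPM against 45.4, 28.1 and 43.7 CPM, with 25.2 to 26.5 CPM at 12 months. Among the falls Brms1 went from 32.5, 24.6 and 37.3 CPM to at most 0.0611 CPM, Fam220a from 19.95, 15.6 and 22.3 CPM to at most 0.0608 CPM, and Cfap43 from 4.86, 8.91 and 4.79 CPM to at most 0.0461 CPM, all of them at most 0.0987 CPM at 12 months. None of these 6 genes was called between 24 and 12 months, with adjusted p-values from 0.385 to 0.994, so that their step lay where the gene set changed. Of 13 mitochondrially encoded genes of oxidative phosphorylation 1 was called (median 0.03), mt-Co2, from 2.21, 2.52 and 2.54 CPM to 7.62, 5.47 and 7.93 CPM (1.53, SE 0.18, adjusted p = 0.00412, kept in 6 of 6 fits), with 6.78 to 7.29 CPM at 12 months and a log2 fold change from there of -0.01 (adjusted p = 0.991). Its step lay where the gene set changed too. The 13 genes summed to between 65091 and 102888 CPM in the 6 kidneys, so that mt-Co2 held a very small part of their counts. Whether its level reflects the transcript was not tested. The extremes of that list were not called. They were mt-Nd4l, at 7.01, 0.225 and 0.225 CPM against 0.397, 0.258 and 0.691 CPM (-2.45, adjusted p = 0.298), and mt-Atp8, at 0.131, 0.164 and 0.225 CPM against 112, 0.380 and 0.430 CPM (7.74, adjusted p = 0.124), each with 1 kidney far above the others.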

How the data were processed

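Whole right kidney pieces of 3 mice per age were sequenced. Per the study's methods, stranded poly(A) libraries (NEBNext Ultra II Directional) were read as paired ends on a NextSeq and processed with nf-core/rnaseq on GRCm38 with GENCODE release M 18. The aligner, the counter and its strand setting are not given in the sources used here, so reads of antisense neighbours could not be examined. The authors deposited raw read counts per gene and kidney, not normalized. Symbols and positions came from release M 21. Identifiers were joined without their version, and the 374 and 1629 identifiers of only 1 gene set were left out of the comparison.

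Counts were fitted in edgeR 4.0.16 (quasi-likelihood, TMM scaling, filterByExpr, limma 3.58.1, R 4.3.3) with 1 mean per age over all 9 kidneys, which share an estimate of the spread. P-values were adjusted by Benjamini-Hochberg over 17067 genes, and calls needed an adjusted p below 0.05 with a log2 fold change larger than 0.5 in size. CPM used the TMM library sizes, and log2 CPM a prior count of 2. The smallest p that an exact two-sided test of 3 against 3 allows is 0.1. Python 3.11.15, numpy 2.4.6, pandas 2.3.3, scipy 1.17.1 and matplotlib 3.10.9 were used for the rest. The 10 most abundant genes took 13.4% to 16.5% of the counts of a kidney, and replicates of an age differed by a chi-square per gene of 43.5 to 341, so that none was counted as a repeat of another. Precision was set by the 3 mice per age.

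Named are genes the study names; among called genes stable in their model at an average of 1 CPM or more whose ages did not overlap, the 12 largest and 12 smallest log2 fold changes and the 6 most abundant in each direction; in each of 41 gene lists the 2 called members with the smallest p in each direction, or the extremes where none was called; and 3 examples in each direction that overlap a gene of only 1 set. These are 115 genes, 82 of them called. Members of lists given beyond this rule were chosen after their values were seen, and some results are not reported here. The comparison, the lists and the rule were chosen with earlier results of these data known.

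On simulated counts for 24 against 3 months (17067 genes, 200 changed) edgeR recovered 15 of 100 genes changed 2-fold and 71 of 100 changed 4-fold, with 2 false calls among 88. DESeq2 1.42.0 recovered 130 of 200, with 41 false calls among 171. The counts were drawn with edgeR's own estimates of the spread and without differences in composition between kidneys. The simulation therefore does not rank the tools for these data. The alternatives tried were 2 scalings, DESeq2, 2 filters, 2 fold change limits, subsets of genes, a replicate block, and each kidney left out in turn. The kidneys of 3 and 24 months alone and the mean level of the principal cell list as a covariate were tried too.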

Additional observations from a re-analysis of the deposited data

Results flagged for a closer look

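Genes outside the comparison carried reads. Of the 1629 identifiers of the 12- and 24-month set alone 135 had more than 3 counts in each 24-month-old kidney, above the limit that a count of 0 allows, and of the 374 identifiers of the 3-month set alone 47 had more than 3 counts in each 3-month-old kidney. Among the first Tmem223 was at 37.8, 53.4 and 48.2 CPM, and among the second Gm42418 was at 734, 821 and 739 CPM. Each is listed at only 1 of the compared ages, and a comparison between ages was therefore not made.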

How the results depend on the processing

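The count of genes higher at 24 months was 322 and that of genes lower at 24 months 77. For genes higher at 24 months it was 727 with DESeq2 at the study's settings, 200 with a mean of at least 1 CPM required, 208 with the kidneys of 3 and 24 months alone and 209 among genes stable in their model fitted alone, and it ran from 52 (without 3-month replicate 1) to 460 (without 3-month replicate 2) over the fits with a kidney of these ages left out. For genes lower at 24 months it was 308 with DESeq2, 50 among genes stable in their model fitted alone, and from 22 (without 3-month replicate 1 or 24-month replicate 1) to 334 (without 3-month replicate 2) with a kidney left out. With the replicate number as a block the counts were 102 and 24. Kidneys of 3 and 24 months with the same number did not deviate together (correlations of -0.034, -0.420 and -0.220), so that the numbers do not pair them. Kidneys of 12 and 24 months with the same number did (0.384, 0.557 and 0.172). For 24 against 12 months, the kidneys of these ages alone gave 141 higher and 46 lower genes, and 1293 and 902 with the replicate block, an alternative added after seeing the data. Under a block over all 9 kidneys, 3 months included, the calls of 24 against 12 months given in the report were lost, with an adjusted p of 0.0751 for Cyp27b1, Cdkn1a and Slco1a1, 0.0958 for C3 and Mki67, 0.128 for Snx31 and 0.152 for Slc34a3. Chosen after seeing the data, leaving out each 12-month kidney gave 220 to 359 and 51 to 108 genes, with 51 without 12-month replicate 3, and the mean level of the principal cell list as a covariate gave 18 and 12. That list itself differed with age, with sums of 1136 to 1473 CPM at 3 months and 660 to 925 CPM at 24 months. The loss of calls with it therefore cannot be assigned to collecting duct content, whose part was not tested.

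Of the 82 called named genes none changed sign under the alternatives, and 30 kept their call with the block, 24 without 3-month replicate 1, 11 with the covariate and 82 with DESeq2. Named genes that were not called changed sign with the covariate, with log2 fold changes of 0.16 for Mif, -0.34 for Havcr1, 0.0075 for Krt7, 0.53 for Krt8, 0.38 for Krt18, -0.59 for Nlrc5, -0.83 for S100a9, -0.87 for Star and 0.29 for Krt15. With a kidney left out Krt8 ran from -0.20 to 0.024, Atp6v0a4 from -0.094 to 0.30, Lep from -1.24 to 3.64, Star from -0.060 to 0.56, Hbb-bs from -1.20 to 0.074 and Krt15 from -0.70 to 0.24. With the covariate the list medians that changed sign were those of interferon response (-0.38), neutrophil and mast cell (-0.14), fibroblast (-0.0075), tubular injury (0.07), intercalated cell (0.04), distal tubule (0.06), podocyte (0.19) and heat shock genes (0.27). Those that moved by over 1.5 times without a change of sign were MHC class I (0.081), chemokine (0.19), T and NK cell (0.42), proximal tubule identity (0.58), endothelium (0.35), secretory phenotype (0.26), proliferation (0.64), circadian clock (0.33), nuclear oxidative phosphorylation (-0.45), mitochondrial oxidative phosphorylation (0.34), fatty acid oxidation (-0.042), histone (-0.55), adipocyte (-0.37), erythroid (0.065) and urothelium (-0.74), the principal cell list set aside since the covariate is made from it. With a kidney left out, some list medians changed sign. Interferon response ran from -0.088 (without 24-month replicate 2) to 0.43 (24-month replicate 1), distal tubule from -0.16 (3-month replicate 3) to 0.085 (3-month replicate 2) and podocyte from -0.30 (3-month replicate 3) to 0.49 (3-month replicate 2). Endothelium ran from -0.040 (24-month replicate 1) to 0.51 (3-month replicate 2), heat shock from -0.23 (3-month replicate 2) to 0.11 (24-month replicate 3) and mitochondrial oxidative phosphorylation from -0.16 (24-month replicate 3) to 0.18 (24-month replicate 2). Histone ran from -0.28 (24-month replicate 2) to 0.082 (24-month replicate 1), adipocyte from -3.93 (24-month replicate 3) to 0.89 (3-month replicate 3) and erythroid from -0.059 (24-month replicate 2) to 0.64 (3-month replicate 3). Other medians moved by over 1.5 times in at least 1 such fit with their sign unchanged. They ran from 0.16 to 0.31 for MHC class I, 0.50 to 1.03 for chemokine, 0.52 to 1.21 for macrophage, 0.44 to 0.92 for dendritic cell and 0.66 to 3.08 for neutrophil and mast cell genes. Proximal tubule transport ran from 0.29 to 0.64, proximal tubule identity from 0.076 to 0.67, loop of Henle from 0.015 to 0.33, fibroblast from 0.14 to 0.48, tubular injury from -0.57 to -0.049 and secretory phenotype from 0.36 to 0.64. Immediate early genes ran from 0.56 to 1.75, circadian clock from 0.064 to 0.25, nuclear oxidative phosphorylation from -0.40 to -0.14 and fatty acid oxidation from -0.19 to -0.0031. The causes were not tested.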

Other observations

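The genes below fall outside the rule for named genes. They were chosen after their values were seen, from the called genes with the smallest p among the remaining ones that are stable in their model, and each was called in 6 of 6 fits with a kidney left out. Gc, the plasma carrier of vitamin D metabolites, was at 8.87, 9.07 and 11 CPM at 3 months, 12.7, 14.5 and 16.8 CPM at 12 months and 36.4, 42.1 and 37.6 CPM at 24 months (log2 fold change 2.0, adjusted p = 0.000499 from edgeR). Npl, which breaks down sialic acid, was at 19.7, 20.01 and 20.9 CPM against 53.5, 50.3 and 50.4 CPM (1.35, adjusted p = 0.00267). Fbp2, a fructose bisphosphatase, was at 9.82, 9.87 and 11.3 CPM against 23.1, 26.4 and 23.2 CPM (1.23, adjusted p = 0.00243). These 3 genes also differed between 24 and 12 months, within 1 gene set, with adjusted p-values from 0.0163 to 0.0181. With the replicate number as a block over all 9 kidneys 0 genes were called between these ages, so that these 3 calls were lost. Mogat2, of triglyceride synthesis, fell from 19.6, 17.1 and 22.4 CPM through 18.4, 14.2 and 16.1 CPM to 5.80, 6.99 and 7.31 CPM (-1.56, adjusted p = 0.00279).

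Others had most of their change by 12 months, and none of them passed between 24 and 12 months (adjusted p from 0.213 to 0.957). Neurog2, a transcription factor of neurons, was at 1.65, 1.07 and 1.26 CPM at 3 months, 5.81, 6.30 and 6.25 CPM at 12 months and 6.41, 5.93 and 6.44 CPM at 24 months (2.24, adjusted p = 0.000654). Flg, which encodes filaggrin, was at most 0.0263 CPM at 3 months and from 0.886 to 1.43 CPM at 24 months. Ugt2a3, Cygb and Sectm1a had log2 fold changes over 3 months of 2.29, 1.61 and 1.81 and over 12 months of 0.32, 0.45 and 0.02. For these 5 genes the step lay where the gene set changed.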
